A study of Homo sapiens with 18 samples.

Results

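The regions described here carried an H3K4me3 peak in V16D cells that overexpressed H19 and none in the control cells. Peaks of the 6 H3K4me3 lists were merged wherever they shared at least 1 base, which gave 25373 merged regions. A region was kept when at least 2 of the 3 V16D/H19 lists and none of the 3 V16D/CTL lists had a peak in it, so the members were chosen by their measured H3K4me3 calls. The rule kept 799 regions, or 3.15% of all merged regions, of which 187 (0.737%) had a peak in all 3 V16D/H19 lists and 612 in 2 of them. The mirror rule, with at least 2 V16D/CTL lists and no V16D/H19 list, kept 408 regions (1.61%). These counts follow from the rule and were not tested.

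V16D is a castration-resistant prostate cancer line that was derived from LNCaP, an androgen-sensitive prostate cancer line. Both groups were V16D cells in RPMI1640 medium with 10% fetal bovine serum. V16D/CTL cells were transduced with a control lentivector and V16D/H19 cells with a lentivector that overexpresses the long noncoding RNA H19, each in 3 biological replicates of the transduction. H3K4me3 and H3K27me3 were mapped by chromatin immunoprecipitation sequencing in every replicate, with 1 input library per replicate. Both groups thus share a single parental line and the viral vector, and the model is overexpression from that vector. The peak lists do not measure the H19 transcript. No library had a peak of either mark within 1 kb of an annotated H19 start.

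H3K4me3 is laid down by SET1 and MLL methyltransferases and sits at the starts of active and poised genes, above all at promoters rich in CpG dinucleotides. H3K27me3 is laid down by the Polycomb repressive complex PRC2 and marks silenced developmental and tissue-restricted genes. Promoters that carry both marks are called bivalent and are well known at neuronal and developmental genes in cells that do not express them.

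A minority of the regions lay at promoters, and the sequence before 6 of these gene starts is shown to let their base composition be compared. KCNN1 encodes a small-conductance calcium-activated potassium channel, SYT14 a synaptotagmin, CLSTN2 a synaptic calsyntenin, FGF5 a secreted growth factor and SMOC1 a secreted calcium-binding matrix protein, and each of their regions also had H3K27me3 in all 6 H3K27me3 lists. IL32 encodes a cytokine, and its region had H3K27me3 in no list. Each line holds the 250 bases before a start on the plus strand, from RefSeq on GRCh38.p14, with CG dinucleotides in capitals.
KCNN1, chr19:17966857-17967106: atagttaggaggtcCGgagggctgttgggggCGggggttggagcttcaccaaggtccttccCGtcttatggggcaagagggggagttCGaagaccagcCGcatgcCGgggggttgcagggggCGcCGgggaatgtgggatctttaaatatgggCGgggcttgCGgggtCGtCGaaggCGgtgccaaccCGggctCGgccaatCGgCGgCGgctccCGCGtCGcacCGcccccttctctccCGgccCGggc
SYT14, chr1:209937967-209938216: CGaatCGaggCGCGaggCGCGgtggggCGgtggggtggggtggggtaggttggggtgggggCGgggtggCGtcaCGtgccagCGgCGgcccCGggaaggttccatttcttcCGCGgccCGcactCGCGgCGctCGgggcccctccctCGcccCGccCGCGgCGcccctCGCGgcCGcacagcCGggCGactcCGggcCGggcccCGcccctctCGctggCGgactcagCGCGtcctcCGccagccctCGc
CLSTN2, chr3:139934935-139935184: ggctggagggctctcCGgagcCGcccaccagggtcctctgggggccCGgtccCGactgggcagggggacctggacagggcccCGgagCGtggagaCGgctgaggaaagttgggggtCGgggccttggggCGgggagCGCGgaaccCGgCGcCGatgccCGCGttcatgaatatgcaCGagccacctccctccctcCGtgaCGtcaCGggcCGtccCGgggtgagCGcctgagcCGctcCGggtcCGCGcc
FGF5, chr4:80266338-80266587: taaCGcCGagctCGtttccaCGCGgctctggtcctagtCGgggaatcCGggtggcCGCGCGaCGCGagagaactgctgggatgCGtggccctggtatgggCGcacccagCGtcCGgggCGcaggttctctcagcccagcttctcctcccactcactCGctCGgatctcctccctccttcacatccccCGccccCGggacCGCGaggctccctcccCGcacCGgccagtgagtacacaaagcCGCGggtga
SMOC1, chr14:69879166-69879415: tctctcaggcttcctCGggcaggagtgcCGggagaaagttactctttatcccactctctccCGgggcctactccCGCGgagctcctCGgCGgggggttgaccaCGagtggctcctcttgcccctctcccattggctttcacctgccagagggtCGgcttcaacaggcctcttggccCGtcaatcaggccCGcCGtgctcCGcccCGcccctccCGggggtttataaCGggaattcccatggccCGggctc
IL32, chr16:3065153-3065402: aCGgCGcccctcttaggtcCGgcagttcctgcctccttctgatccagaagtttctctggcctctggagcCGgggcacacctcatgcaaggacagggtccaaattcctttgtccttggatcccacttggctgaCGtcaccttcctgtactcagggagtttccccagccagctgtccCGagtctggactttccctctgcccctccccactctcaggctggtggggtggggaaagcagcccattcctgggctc
The SYT14, FGF5 and SMOC1 stretches lay wholly inside the called region, with 39, 27 and 17 CG dinucleotides. The KCNN1 stretch, with 24 CG, and the CLSTN2 stretch, with 27, lay partly inside, the latter with 119 bases. The IL32 stretch held 6 CG, the fewest of the 6, and 74 of its bases lay inside the region. The stretch before a second IL32 start held 5 CG and lay wholly inside. Single genes did not all divide this way. At other regions without H3K27me3 the stretch held 26 CG at SRRM3, 21 at CNTNAP5, 12 at ZNF730 and 3 at CCL20. Of the ZNF730 stretch 10 bases lay inside the region, and of the CCL20 stretch none did. At other regions with H3K27me3 in at least 2 lists of both groups the stretches ranged from 8 CG at KCNK2 to 42 at EPHA8.

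The lists themselves were of similar length. V16D/CTL replicates had 21168, 20094 and 20422 H3K4me3 peaks and V16D/H19 replicates 21934, 21886 and 20048. The H3K27me3 lists held from 55060 to 72289 peaks. No read depth entered the comparison, so counting intervals are absent, and a region without a peak may carry signal below the caller's threshold. The V16D/H19 replicate 3 list was the shortest and had a peak in 424 members (53.1%), against 680 (85.1%) and 681 (85.2%) for replicates 1 and 2. Accordingly 375 members (46.9%) were called in replicates 1 and 2 alone, 118 in replicates 1 and 3 and 119 in replicates 2 and 3. Leaving out V16D/H19 replicate 1, 2 or 3, with a peak required in both remaining lists, gave 310, 313 and 569 regions, and leaving out V16D/CTL replicate 1, 2 or 3 gave 1147, 994 and 1063. With all lists cut to the length of the shortest, 553 regions met the rule and 499 met its mirror, so the numbers of the 2 sets depended on list length. The line's own markers KLK2, KLK3, KRT8, KRT18, HOXB13, FOXA1 and TMPRSS2 had promoter H3K4me3 in all 6 lists and promoter H3K27me3 in none.

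**Figure D1:**
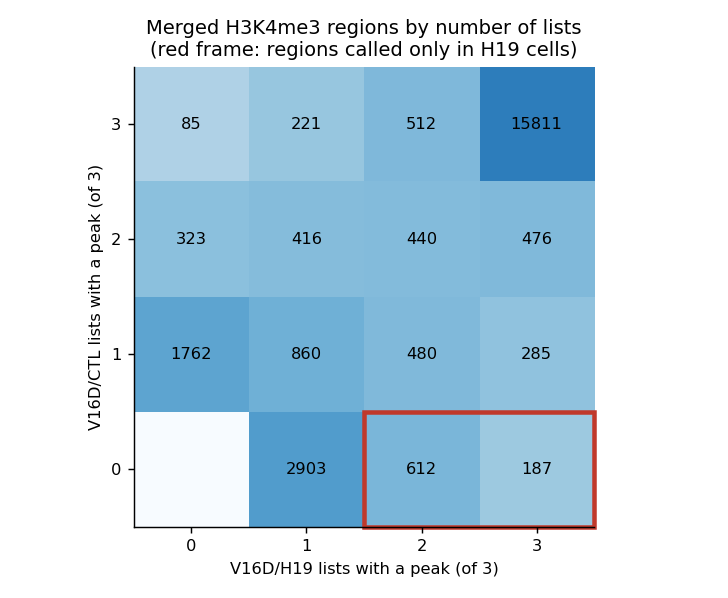
Number of merged H3K4me3 regions by how many V16D/CTL lists (vertical axis) and V16D/H19 lists (horizontal axis) had a peak; the shade follows the logarithm of the count. The red frame holds the 612 and 187 regions called only in H19 cells, beside 15811 regions called in all 6 lists.

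The members were short, low peaks. Their median width was 397 bases (quartiles 321 and 520, widest 1379), against 2000 bases for the 15811 regions called in all 6 lists. The median MACS2 fold enrichment over input of the called peaks was 5.08, 5.11 and 5.02 in V16D/H19 replicates 1, 2 and 3. Regions called in all 6 lists had medians of 38, 41.2 and 37.4 in the same libraries. Between 11.6% and 14.4% of the peaks in each V16D/H19 list were lower than the median member. The highest median fold of any member was 14.5.

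The 187 members with 3 calls had median folds of 5.67, 5.68 and 5.1 in replicates 1, 2 and 3. The highest of the 3 folds was 1.43 times the lowest at the median region and 2.99 times at most. Just inside the rule, the 612 members with 2 calls had a median width of 370 bases and a median fold of 4.92. Just outside it, the 2903 regions with 1 V16D/H19 call and no V16D/CTL call had 240 bases and 4.53, and the 765 regions with 2 or 3 V16D/H19 calls and 1 V16D/CTL call had 482 bases and 5.21. The control-only regions, at 378 bases and 4.99, were close to the members in width and height. Height and width graded across the edge of the rule. A merged width spans every peak in the region, so more calls can by themselves widen it, and this grading is a description.

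**Figure D2:**
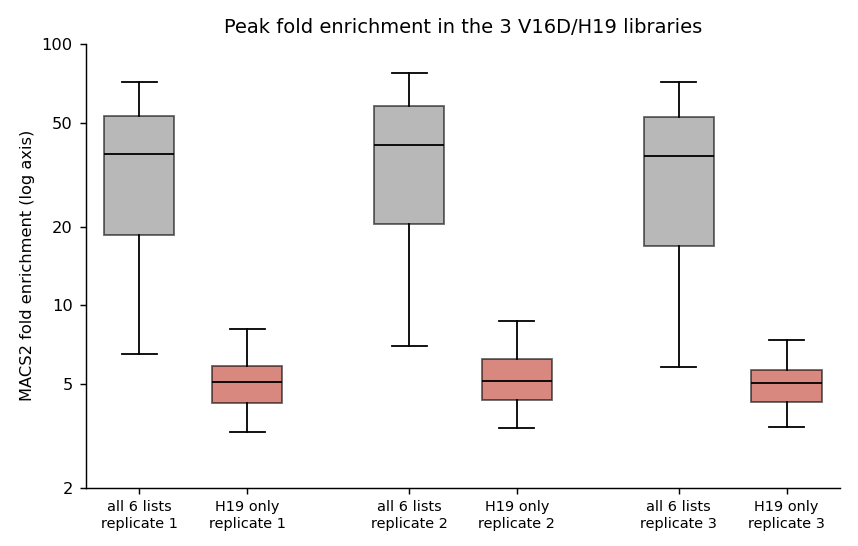
MACS2 fold enrichment of H3K4me3 peaks (log axis) in each V16D/H19 library for regions called in all 6 lists (grey) and only in H19 cells (red); boxes span the 25th to 75th percentile with the median as a line, and whiskers the 5th to 95th. The medians of the H19-only regions were 5.08, 5.11 and 5.02, below the grey boxes in all 3 libraries.

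Few control peaks lay beside the members. The median distance to the nearest V16D/CTL peak was 22190 bases (quartiles 2631 and 84498), while 128 members (16%) lay within 500 bases of one. Whether these are edges of regions that both groups share was not tested. Without these, 671 members remained. The authors' differential H3K4me3 table, which lists sites past their own threshold, had a row at 79 of the 799 members (9.89%) and at 51 of the 187 with 3 calls (27.3%), against 7.89% of all merged regions. There the authors' mean log2 concentration had a median of 1.95 in V16D/CTL (from −0.2 to 9.69) and 4.26 in V16D/H19 (from 3.01 to 10.1). V16D/H19 was lower at none of the 79. In that table as a whole it was lower at 76% of 1857 rows, with medians of 8.59 in V16D/CTL and 8.3 in V16D/H19. At 7 of the 79 the V16D/CTL mean was at the lowest value in the table, −0.2, and a row can be wider than the member it overlaps. Of the promoter regions given below with folds, those at PIK3CD, CLVS2, GRIN3B, SYT14, CDH13, CDHR1, PCDH8, CHGB, SRRM3, FGF19 and EPHA8 had no row. The authors' means come from the same reads as the calls.

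Most members lay away from gene starts. A protein-coding start lay within 1 kb of 159 members (19.9%), the distance that defines a promoter here, and 485 members (60.7%) lay more than 10 kb from any such start. Coding gene bodies overlapped 520 members (65.1%), 383 of them away from promoters, and 279 (34.9%) lay outside coding genes. Of all merged regions, 51.4% lay at promoters and 35.4% more than 10 kb from a coding start. Coding gene bodies overlapped 75.8% of all merged regions, and 24.2% lay outside them. Another 40 members were within 1 kb of a noncoding start alone, of which 23 were lncRNA starts and 9 pseudogene and 5 transcribed pseudogene starts. The promoter share was 33.2% of the members with 3 calls and 15.8% of those with 2 calls. It was 8.47% of the regions with 1 V16D/H19 call and none in V16D/CTL, 10.5% of the control-only regions and 75.3% of the regions called in all 6 lists. With lists of equal length it was 22.6% of 553 H19-only and 12.6% of 499 control-only regions.

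The 159 promoter members lay at 159 protein-coding genes, counting every gene with a start within 1 kb. At 106 of these genes no other promoter region had a V16D/CTL call. At the other 53 an additional region at a promoter of the gene was called in V16D/CTL, in 42 of them in all 6 lists. The region held the start itself at 88 of the 159 members.

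Among the genes whose promoter members had 3 calls, 12 were taken by the highest value of their lowest fold. ZNF730, a zinc finger gene at chr19:23117015-23117891, had folds of 10.5, 7.95 and 10.5 in V16D/H19 replicates 1, 2 and 3. SMOC1 (chr14:69879144-69880069) had 8.34, 8.87 and 7.38. IL32 (chr16:3065329-3066577) had 7.8, 10.9 and 7.09. All 3 regions held a start, and the nearest V16D/CTL peak lay 40496, 109933 and 5433 bases away.

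ATP2B2, which encodes a plasma membrane calcium pump of neurons and hair cells, had folds of 6.98, 9.32 and 7.25 at chr3:10707618-10707972, 144 bases from its start. ACHE, the acetylcholine-hydrolysing enzyme of cholinergic synapses, had 9.3, 8.34 and 6.5 (chr7:100896600-100897337). MGAT3, which adds the bisecting sugar of N-glycans, had 8.14, 9.22 and 6 (chr22:39457272-39457997). Replicate 3 was the lowest for ACHE and MGAT3 and replicate 1 for ATP2B2. PIK3CD, a catalytic PI3-kinase subunit of leukocytes, had 8.44, 6.32 and 10.4 (chr1:9651705-9652356), with replicate 3 the highest.

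The chemokine gene CCL20 had folds of 7.27, 8.34 and 5.8 across 1332 bases (chr2:227813844-227815175), the widest of the 12 regions. CLVS2, which encodes a neuronal clathrin-associated lipid-binding protein, had 6.85, 5.58 and 5.67 (chr6:122996157-122996664). KCNB2, FGF5 and GRIN3B complete the 12 and are given with their gene groups. Of the 12, H3K27me3 was called in all 6 lists at 9 and in no list at ZNF730, IL32 and CCL20. The authors' mean log2 H3K4me3 concentration was 3.26 in V16D/CTL and 4.98 in V16D/H19 at ZNF730, 2.47 and 5.41 at IL32, and 1.96 and 5.41 at CCL20.

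**Figure D3:**
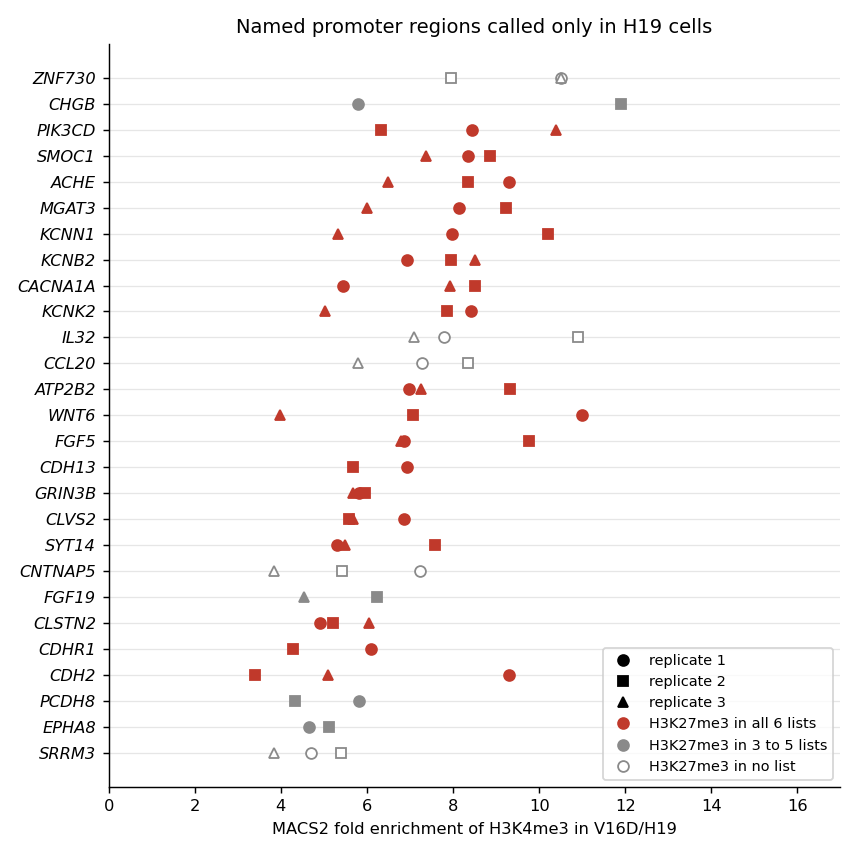
MACS2 fold enrichment of H3K4me3 (horizontal axis) in each V16D/H19 library for the named promoter regions, 1 gene per line, where a missing symbol means no peak in that replicate and no V16D/CTL list had a peak. Red marks regions with H3K27me3 peaks in all 6 H3K27me3 lists, open symbols those with none, such as ZNF730, IL32 and CCL20.

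Ion channel and receptor genes, the longest list, had the most members. This list was taken by symbol prefix, so it can hold genes of other kinds that share a prefix. At 16 of 267 genes for ion channels and neurotransmitter receptors (5.99%) a promoter held a member, against 159 of all 19675 protein-coding genes with a start (0.808%). The control-only regions reached 1 gene of this list, TRPM8 (0.375%, against 0.219% of all coding genes). Among genes without a promoter region called in all 6 lists, 14 of 151 channel and receptor genes (9.27%) and 117 of all 7034 (1.66%) had a member. With lists of equal length 13 channel and receptor genes had a member, and without V16D/H19 replicate 1 there were 11, the fewest over the alternatives tried.

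KCNN1, the calcium-activated potassium channel, had 2 members, and the region at chr19:17966914-17967506 had folds of 7.98, 10.2 and 5.32. KCNB2, a delayed rectifier potassium channel also listed as a neuroendocrine marker, had 6.92, 7.95 and 8.5 (chr8:72536712-72537489). CACNA1A, the pore subunit of the P/Q-type calcium channel at presynaptic terminals, had 5.44, 8.51 and 7.93 (chr19:13506022-13506556). Each was called in all 3 V16D/H19 lists, with the lowest fold in replicate 3 for KCNN1 and in replicate 1 for KCNB2 and CACNA1A.

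KCNK2, a background potassium channel, had 2 members beside each other, and the higher one, at chr1:215082599-215082990, had folds of 8.42, 7.87 and 5.02. GRIN3B, an NMDA receptor subunit, had 5.81, 5.96 and 5.67 (chr19:1000257-1000719), with all 3 folds close together. The authors' mean log2 concentration went from 1.61 in V16D/CTL to 4.49 in V16D/H19 at KCNN1, from 0.51 to 3.91 at KCNB2, from 2.27 to 4.36 at CACNA1A and from 2.4 to 4.89 at KCNK2. The other list genes with a member were CACNA1E, GABRA2, GRIN2B, KCNA1, KCNA6, KCNH5, KCNJ6, KCNK13, KCNQ3, KCNT1 and SCN9A. Over the 18 members at these 16 genes the median fold ranged from 3.82 to 7.98, 13 were called in all 3 lists, and none lay within 500 bases of a V16D/CTL peak.

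Synaptic and neuronal adhesion genes had members at 7 of 135 promoters (5.19%), and the control-only regions at 1, SLITRK6 (0.741%). This list was also taken by symbol prefix, and its prefix CDH takes in every cadherin, not only those of neurons. Among adhesion genes without a promoter region called in all 6 lists, 7 of 60 (11.7%) had a member. SYT14 had folds of 5.3, 7.59 and 5.5 (chr1:209937781-209938500). CLSTN2 had 4.9, 5.21 and 6.04 (chr3:139935066-139935638), and its authors' mean in V16D/CTL was −0.2, the lowest in the table, against 4.07 in V16D/H19. CNTNAP5, a contactin-associated neurexin-like protein, had 7.23, 5.42 and 3.84 (chr2:124024921-124025381). These 3 were called in every V16D/H19 list, in no shared order of the replicates.

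CDH2, or N-cadherin, the mesenchymal and neural cadherin, had folds of 9.3, 3.4 and 5.1 at chr18:28177627-28178286, 497 bases from its start, the widest spread among the adhesion genes. CDH13, a cadherin anchored by a lipid, had 6.92 and 5.68 in replicates 1 and 2 and no peak in replicate 3. PCDH8, a protocadherin, had 5.81 and 4.34, and CDHR1, a photoreceptor cadherin, had 6.1 and 4.29, again in replicates 1 and 2. These 3 regions thus rested on the same pair of libraries.

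Neuroendocrine markers had members at 4 of 24 promoters (16.7%), namely CHGB, CDH2, KCNB2 and SRRM3. CHGB, the granule protein chromogranin B, had folds of 5.8 and 11.9 in replicates 1 and 2 and no peak in replicate 3 (chr20:5911253-5911718). SRRM3, a splicing factor of neuronal microexons, had 4.71, 5.4 and 3.84 (chr7:76201759-76202230), but a V16D/CTL peak lay 11 bases away and another region of its promoter was control-only. SRRM3 thus counted in both directions. This list is short, and the KCNB2 and CDH2 regions were counted with their own gene groups as well. The paper had already named KCNB2 and CDH2 for altered H3K4me3 in these same cells. The share of this list is therefore not independent of these data.

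Signalling genes of the WNT, TGF-beta and FGF families had members at 3 of 96 promoters. WNT6, a WNT ligand, had folds of 11, 7.07 and 3.97 (chr2:218859470-218860178), with replicates 1 and 3 farthest apart. FGF5 had 6.85, 9.76 and 6.8 (chr4:80265819-80266898). FGF19, the endocrine bile acid hormone, had no peak in replicate 1 and 6.24 and 4.54 in replicates 2 and 3 (chr11:69704138-69704739). Axon guidance gave 1 of 74 genes, EPHA8, an ephrin receptor with folds of 4.65 and 5.11 in replicates 1 and 2.

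Other lists held no member. None of 40 neuroendocrine and neural transcription factors, 24 luminal and androgen receptor pathway genes, 20 basal and mesenchymal genes, 12 blood and endothelial genes or 87 cytosolic ribosomal protein genes had one at a promoter. The share over all protein-coding genes was 0.808%, at which lists of these sizes may hold none. For the luminal list, 21 of 24 genes had a promoter region called in all 6 lists, and control-only regions lay at GATA3 and TRPM8, which also belongs to the channel list. For the ribosomal list 84 of 87 did. The lists were chosen with earlier results of these data known, and the shares are descriptions without a test.

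**Figure D4:**
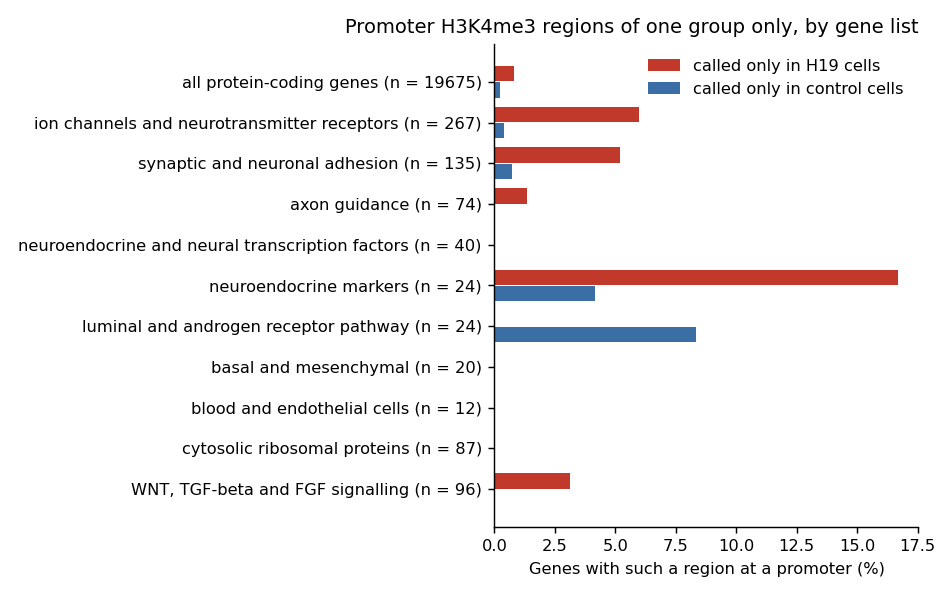
Percentage of the genes of each list (horizontal axis, number of genes in brackets) with a promoter region called only in H19 cells (red) or only in control cells (blue); a missing bar stands for 0. Channel and receptor genes reached 5.99% and adhesion genes 5.19%, against 0.808% of all protein-coding genes.

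H3K27me3, which the rule did not use, was compared at the members in each library. A member counted as marked when an H3K27me3 peak shared at least 1 base with it. V16D/CTL replicates 1, 2 and 3 had shares of 18.3%, 18.6% and 19.4%, a mean of 18.8% ± 0.574 (SD, n = 3). Those of V16D/H19 had 17.5%, 18.1% and 17.1%, a mean of 17.6% ± 0.506 (SD, n = 3), and every V16D/H19 library was below every V16D/CTL library. The difference was −1.17 percentage points, with a two-sided exact permutation p = 0.1, the smallest that 3 against 3 libraries allow. Over all 25373 merged regions the means were 8.34% and 6.94%, a difference of −1.4 (exact permutation p = 0.1), so the V16D/H19 share was lower over all merged regions as well. Relative to all merged regions the direction turned. The members' share divided by that of all regions was 2.39, 2.13 and 2.25 in the V16D/CTL libraries and 2.63, 2.56 and 2.43 in the V16D/H19 libraries, so that the ratio in V16D/H19 exceeded the other by 0.282, and the libraries did not overlap (p = 0.1, exact permutation). This ratio was chosen after seeing the data.

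At the 159 promoter members the mark was frequent in both groups. H3K27me3 peaks lay at 88, 87 and 91 of them in V16D/CTL and at 85, 91 and 83 in V16D/H19, with respective means of 55.8% ± 1.31 and 54.3% ± 2.62 (SD, n = 3 each). These groups overlapped (difference −1.47 percentage points, exact permutation p = 0.5). All merged regions at promoters had 11.4% and 9.67%, and promoter regions called in all 6 lists 9.13% and 7.53%. Control-only promoter regions had 4 of 43 marked (9.3%) in each of the 6 lists.

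The share graded with the number of V16D/H19 calls. It was 64.5% in V16D/CTL and 64% in V16D/H19 for promoter members with 3 calls, 50.2% and 48.1% for those with 2, and 40% and 36.9% for the 246 promoter regions with 1 V16D/H19 call alone. The 121 promoter regions with 1 V16D/CTL call alone had 12.1% and 10.5%. With H3K4me3 lists of equal length the H19-only promoter regions ranged from 55.2% to 61.6% over the 6 libraries and the control-only ones from 9.52% to 12.7%. The libraries of both groups gave this contrast, and it was not tested over regions, because the H3K4me3 calls of the same cultures chose them.

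**Figure D5:**
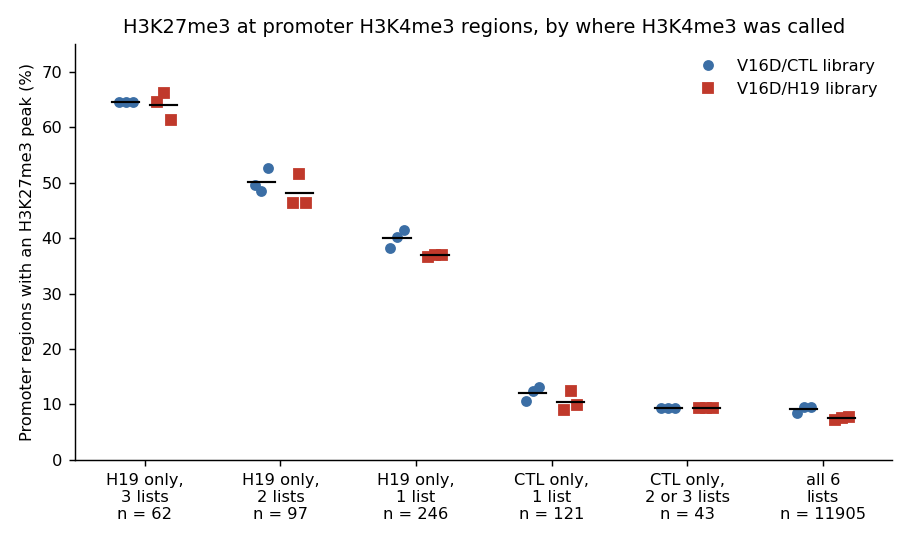
Percentage of promoter H3K4me3 regions with an H3K27me3 peak (vertical axis) in each V16D/CTL (blue circles) and V16D/H19 (red squares) library, with the mean of 3 libraries as a bar, for sets by the lists in which H3K4me3 was called. Both groups' means lie between 48.1% and 64.5% for regions called only in 2 or 3 H19 lists and at 9.3% for regions called only in 2 or 3 control lists.

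Read by gene, 1886 of 19675 protein-coding genes had an H3K27me3 peak within 1 kb of a start in at least 2 lists of both groups. Of these 93 (4.93%) had a member at a promoter, against 66 of the other 17789 (0.371%). For control-only regions the shares were 0.265% and 0.214%. All these shares count every gene, also the 12641 (64.2%) with a promoter region called in all 6 lists. Among channel and receptor genes 117 of 267 (43.8%) were marked in this way, and all 16 genes with a member were among them (13.7%). Of the adhesion genes 49 were marked, and 6 of those had a member (12.2%). Of the 40 neuroendocrine and neural transcription factors 28 were marked and none had a member. At the 4.93% of all marked genes, a list of 28 may hold none.

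At the deposited threshold few members had an H3K27me3 call in one group only. H3K27me3 was called in at least 2 V16D/CTL lists and no V16D/H19 list at 3 members (0.375%), against 0.883% of all merged regions. The reverse held at 2 members (0.25%), against 0.158% of all. Peaks in at least 2 lists of both groups were found at 137 members (17.1%) and 6.29% of all regions. The 3 that lost the call, named after their values were seen, lay 100023 bases from RPL10L, in TCF4 and in KLK10, none within 1 kb of a coding start. The 2 that gained it lay in CDH8 and at the start of HRURF and HR.

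These values changed with a stricter H3K27me3 threshold. With peaks of a −log10 q of at least 3, the V16D/CTL libraries marked 44%, 45.9% and 42.8% of the promoter members. The V16D/H19 libraries marked 32.1%, 34.6% and 35.2%. Group means were 44.2% ± 1.58 and 34% ± 1.66 (SD, n = 3 each), a difference of −10.3 percentage points without overlap (exact permutation p = 0.1). All merged promoter regions fell from 6.75% to 4.02% under that threshold. At 11 members (1.38%) a peak was then called in at least 2 V16D/CTL lists and no V16D/H19 list, against 1.02% of all merged regions. At promoters this held for 6 of 159 members (3.77%), against 1.45% of all merged promoter regions. The members' share of such calls was thus below that of all regions at the deposited threshold and above it under the stricter one. Members carried the mark more often to begin with, so these shares and differences in points do not give the loss per marked region. In proportion to the V16D/CTL mean, the fall was smaller at promoter members (44.2% to 34%) than at all merged promoter regions (6.75% to 4.02%).

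The authors' differential H3K27me3 table had a row at 30 members (3.75%), 16 of them at promoters, against 2.02% of all merged regions. The median of the authors' mean log2 concentration there was 8.04 in V16D/CTL against 7.58 in V16D/H19. V16D/H19 was lower at all 30. In the table as a whole V16D/H19 was lower at 91.5% of rows. At SMOC1 the authors' means for H3K27me3 were 7.56 and 6.98, and for H3K4me3 1.49 and 4.61. At CDHR1 the H3K27me3 means were 7.96 and 7.57.

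H3K27me3 was called in at least 2 lists of both groups at 87 of the 159 and in no list at 61, with 11 between. The marked ones had a median width of 535 bases, and 41 of 87 (47.1%) were called in all 3 V16D/H19 lists. The unmarked ones had 382 bases, and 21 of 61 (34.4%) were called in all 3. The median distance to a V16D/CTL peak was 56791 bases for the marked and 8692 for the unmarked, and 11.5% and 24.6% lay within 500 bases of such a peak.

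CpG content followed the same split. RefSeq promoter windows, 250 bases before to 50 after a start, were matched for 84 genes with 92 windows that overlapped a member. These had a median of 22 CG dinucleotides per 300 bases, close to the 21 of all 22199 coding windows. Windows of the marked members had a median of 26 (51 windows, 44 genes), and those of the unmarked had 12 (35 windows, 34 genes). Windows under regions called in all 6 lists had 28 and windows without a region 5. The observed over expected CpG ratio was 0.812 for the marked and 0.459 for the unmarked.

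Short motifs of transcription factors were searched in the same windows on both strands. The E-box CAGCTG of proneural bHLH factors was in 18.5% of member windows and 18% of all coding windows, and the wider CANNTG, which includes it, in 62% and 65.1%. The androgen receptor element core AGAACA was in 8.7% and 11.7%, and the SOX-like ACAATG in 4.35% and 8.17%. The SOX-like ACAAAG was in 13% and 13.6%, the forkhead TGTTTAC in 1.09% and 2.85%, and the octamer ATGCAAAT in 1.09% and 1.66%. GGGCGG, the GC box, was in 64.1% and 56.3%, and in 74.3% of windows under regions called in all 6 lists. A match in a window is a description and not a bound site.

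The 485 members more than 10 kb from a coding start had less H3K27me3, with means of 8.11% in V16D/CTL and 7.08% in V16D/H19 (exact permutation p = 0.1), against 4.5% and 3.43% of all merged regions at that distance. The 6 with the highest lowest fold among those with 3 calls began with a region on chromosome 20 (chr20:64316467-64316915), 60719 bases from PCMTD2, with folds of 11.2, 10.2 and 9.63 and H3K27me3 in all 6 lists. A region at the start of the transcribed pseudogene NAP1L6P (chrX:73127453-73128097) had 9.3, 9.65 and 8.36. Another inside SP140L (chr2:230342366-230342956), a nuclear body protein gene, had 8.19, 7.5 and 8.5. Replicate 3 was the lowest at the first 2 of these and the highest at the third.

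A region on chromosome 16 (chr16:46427702-46428717), with SHCBP1 as the nearest coding start at 192662 bases, had folds of 9.88, 8.51 and 7.37 and H3K27me3 in all 6 lists. Inside CACNA1C, the L-type calcium channel gene, a region at chr12:2582855-2583363 had 8.52, 8.98 and 7.09. The region 223929 bases from DIO2 (chr14:80454986-80455696) had 7.98, 9.3 and 6.8. No H3K27me3 was called at the CACNA1C and DIO2 regions or at NAP1L6P and SP140L in any list. Replicate 3 gave the lowest fold at all 3 regions of this paragraph.

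Members were spread over the chromosomes. Their share of the merged regions was highest on chromosome 8 (49 of 1027, 4.77%) and chromosome 20 (33 of 696, 4.74%) among the chromosomes with over 100 regions, and lowest on chromosome 13 (9 of 485, 1.86%). On chromosome 8 it was 5.48% before 45 Mb and 4.35% beyond. The control-only share on chromosome 8 was 1.27%. Within 100 kb of each other, members formed 59 pairs, 3 runs of 3, 1 run of 4 and 1 run of 5, and 663 members stood alone.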

How the data were processed

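V16D/CTL and V16D/H19 cells had 3 replicates each, with groups and replicate numbers from the sample titles. Per the study's methods, the authors called peaks per library with MACS2 at default settings against the input of that replicate, narrow for H3K4me3 and broad for H3K27me3. The submitters' processing notes name hg38, DiffBind and ChIPseeker, without versions. Each deposited list gives per peak a fold enrichment over input (a linear ratio), −log10 p-values and −log10 q-values and, in the narrow lists, a summit offset. The authors' deposited differential tables give a log2 concentration per group, a mean over replicates, used only as the authors' mean; their fold, p-value and FDR columns were not used. Peak lists depend on sequencing depth, which was not used here.

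Peaks were merged with Python 3.11.15, pandas 2.3.3 and numpy 2.4.6, after the code was tested on simulated lists. Starts were 28055 RefSeq starts on GRCh38.p14 (19675 of 20037 protein-coding genes), with strands from RefSeq promoter windows or, by symbol, from GENCODE. A promoter lay within 1 kb of a start. H3K27me3 shares were compared by two-sided exact permutation over the 20 assignments of 6 libraries. The replicates are separate transductions of the same line. Named regions were the 12 promoter members and 6 members over 10 kb from starts with the highest lowest fold among those with 3 calls, and the members at promoters of the gene lists, all for lists of up to 8 members and otherwise the 4 with the highest median fold. A further rule, for promoter members that lost H3K27me3 calls in V16D/H19, found none at the deposited threshold. The members and lists were chosen with earlier results of these data known. The channel, adhesion, axon guidance, ribosomal and signalling lists were taken by symbol prefix and the others by name. Alternatives covered peak thresholds, list length, merging distance, promoter distance and each replicate left out.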

Additional observations from a re-analysis of the deposited data

How the results depend on the processing

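The count of 799 members was within 1.5 times under stricter peaks, lists of equal length (553), merging within 500 or 5000 bases (709 and 603) and distance from control peaks (671, chosen after seeing the data). Group consensus gave the same 799 by construction. Requiring 3 calls gave 187. Leaving out 1 library gave from 310 (without V16D/H19 replicate 1) to 1147 (without V16D/CTL replicate 1), with 313 without V16D/H19 replicate 2. Members with 3 calls numbered from 258 to 302 with a control library left out, 302 without V16D/CTL replicate 1 and 286 without replicate 3. Without a V16D/H19 library both remaining lists had to hold a peak, and without a V16D/CTL library the rule was looser. The counts therefore moved with the rule as well as with the library.

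The promoter share of 19.9% was 33.2% for members with 3 calls, 23.9% and 31.9% with starts within 2000 and 5000 bases, 24.9% with genes of any kind, and from 18.4% to 25.5% with 1 library left out. The H3K27me3 difference of −1.17 percentage points kept its sign under every other threshold, list length, merging, window and set of members tried, from −0.668 with peaks within 5000 bases to −3.13 with the stricter H3K27me3 threshold, and from −1.44 to −0.855 with 1 library left out. The exact permutation p was 0.1 in 7 of these 18 and above it in the other 11, up to 0.4 with peaks within 5000 bases. The groups overlapped in some of these. With 1 library left out, a p above 0.1 need not mean that they overlapped. The share relative to all merged regions, chosen after seeing the data, was higher in V16D/H19 by 0.282. The stricter threshold moved the members called in V16D/CTL only from 3 to 11, and lists of equal length gave 3. The H3K27me3 share of promoter members, averaged over 6 libraries (55%), ranged from 48.8% to 64.2% over the member alternatives, and channel and receptor genes with a member from 11 to 20, both chosen after seeing the data.

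The sample titles do not say whether replicate numbers pair the samples. Correlations of same-numbered deviations were −0.000849, 0.026 and 0.0195. Between different numbers they ran from −0.0277 to 0.0078, and values this small cannot decide the question. With the replicate block the H3K27me3 difference was −1.17, with an exact sign-flip p = 0.25, the smallest that 3 pairs allow. With 3 libraries per group no test here can pass 0.05, and regions under the calling threshold cannot be told from unmarked ones.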
